A study of Mus musculus with 6 samples.

Results

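The genes described here are those of the pre-T cell receptor, the CD3 signalling chains and the enzymes that cut and fill antigen receptor genes: Ptcra, Cd3d, Cd3e, Cd3g, Cd247, Rag1, Rag2 and Dntt. They were taken by symbol, after the Entrez gene IDs of the count table had been matched to NCBI mouse names, and all 8 of the 8 were among the 40808 genes of the table. The study sequenced the 3′ ends of polyadenylated RNA from mouse spleen. Its title concerns the control of NOTCH receptors by UVRAG, ITCH and the ESCRT machinery. All mice had received a bone marrow transplant, and RNA was extracted, according to the labels, from leukaemia cells in the spleen. The groups were 3 libraries without Dox (replicates 4, 5 and 6) and 3 libraries with Dox (replicates 10, 11 and 12). Dox is not spelled out, and its dose and duration, the gene it was meant to act on, the promoter that drives that gene, the strain, sex and age of donors and hosts, and the cells the hosts retained are not given in the sources used here. Nor is it given whether each library came from its own mouse, so p-values measure the spread between these libraries, which may be technical.

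In a developing T cell the Rag1 and Rag2 proteins together cut DNA beside the gene segments of the T cell receptor, and terminal deoxynucleotidyl transferase, the product of Dntt, adds bases at the joints. A rearranged beta chain first pairs with pre-T alpha, the product of Ptcra, before any alpha chain is made. This pre-T cell receptor, like the mature receptor, signals through CD3 delta, epsilon and gamma and the zeta chain (Cd247), which carry the phosphorylated tyrosine motifs. In healthy mice Ptcra, Rag1, Rag2 and Dntt belong to immature lymphocytes of the thymus and bone marrow, whereas the CD3 chains persist in mature T cells of the spleen.

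Cd3g, Cd3d and Cd3e lie together on chromosome 9, within 40092 bases from the end of Cd3g to the start of Cd3e (RefSeq, GRCm38.p6, the build family named in the submitters' processing notes). Cd3g (chr9:44969572-44980431, minus strand) and Cd3d (chr9:44981769-44987052, plus strand) are transcribed away from each other, with 1355 bases between the start sites used for the sequences below. Cd3e (chr9:44998735-45009663, minus strand) is transcribed towards Cd3d. Rag1 (chr2:101638252-101649532, minus strand) and Rag2 (chr2:101624712-101632528, plus strand) also face each other, with their 3′ ends 5724 bases apart. Ptcra is at chr17:46755663-46763712 (minus strand), Cd247 at chr1:165779952-165871153 (plus strand) and Dntt at chr19:41029275-41059525 (plus strand).

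Because these genes differed together between the groups, the 250 bases before 5 of their start sites are shown (RefSeq, GRCm38.p6, read 5′ to 3′ on the strand of the gene). The start sites are those of the RefSeq promoter table. For 5 of the 8 genes they are the outermost base of the gene, but for Cd3d, Cd3e and Cd247 they lie 17, 52 and 8729 bases inside it, so that these windows reach into or lie within the gene as annotated. Ptcra, Rag1 and Dntt are included as the immature-stage genes with the largest differences, and Cd3g and Cd3d as the pair that share a stretch of DNA between their start sites. Capitals mark the letters CAGNTG on either strand, a core of the E-box that E proteins such as those of Tcf3 and Tcf12 bind.
Ptcra, chr17:46763713-46763962, minus strand: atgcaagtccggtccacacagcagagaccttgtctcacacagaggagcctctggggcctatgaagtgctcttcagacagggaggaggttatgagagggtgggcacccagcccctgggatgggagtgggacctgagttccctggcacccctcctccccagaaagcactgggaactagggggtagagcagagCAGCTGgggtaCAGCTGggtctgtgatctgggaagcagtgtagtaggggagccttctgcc
Rag1, chr2:101649533-101649782, minus strand: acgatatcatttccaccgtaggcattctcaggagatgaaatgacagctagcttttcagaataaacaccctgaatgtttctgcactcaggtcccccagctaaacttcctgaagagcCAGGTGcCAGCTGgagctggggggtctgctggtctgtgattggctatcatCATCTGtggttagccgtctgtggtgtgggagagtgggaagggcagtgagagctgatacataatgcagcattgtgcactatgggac
Dntt, chr19:41029025-41029274, plus strand: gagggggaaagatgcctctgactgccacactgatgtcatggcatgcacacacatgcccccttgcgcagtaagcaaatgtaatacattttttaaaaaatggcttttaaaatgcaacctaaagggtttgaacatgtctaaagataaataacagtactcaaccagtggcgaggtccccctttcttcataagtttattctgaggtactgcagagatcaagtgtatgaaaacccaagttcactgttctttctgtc
Cd3g, chr9:44980432-44980681, minus strand: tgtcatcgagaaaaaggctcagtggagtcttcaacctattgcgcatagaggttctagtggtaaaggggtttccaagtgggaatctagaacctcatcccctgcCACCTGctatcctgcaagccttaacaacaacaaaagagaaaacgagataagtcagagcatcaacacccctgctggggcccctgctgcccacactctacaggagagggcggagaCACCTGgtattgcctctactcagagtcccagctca
Cd3d, chr9:44981536-44981785, plus strand: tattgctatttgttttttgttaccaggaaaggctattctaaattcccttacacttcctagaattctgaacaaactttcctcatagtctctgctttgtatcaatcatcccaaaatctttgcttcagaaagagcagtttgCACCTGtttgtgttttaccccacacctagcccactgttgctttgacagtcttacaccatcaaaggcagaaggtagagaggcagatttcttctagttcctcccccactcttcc

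CAGNTG was found in the windows of 5 of the 8 genes (Ptcra, Cd3d, Cd3g, Cd247 and Rag1) and in 44.8% of 32841 windows of that length before the start sites of all genes. Rag1 held 3 matches, starting 135, 128 and 85 bases before the start site, a number reached in 3.26% of all windows. Ptcra held 2, at 60 and 49 bases, and Cd3g 2, at 148 and 35 bases, a number reached in 13.2% of all windows. TGGGAA on either strand, the core of the sequence that the NOTCH partner RBPJ binds, was in the windows of 4 of the 8 genes (Ptcra, Cd3e, Cd3g and Rag1) and in 21.6% of all windows. Ptcra held it at 84 and 32 bases before its start, and 2 or more matches occurred in 2.76% of all windows. The RUNX core TGTGGT, searched on both strands like the other motifs, was in 1 of the 8 windows, that of Rag1 at 81 and 67 bases, where the first match overlaps the last CAGNTG match, and in 14% of all windows. The TCF core CTTTGA was in 1 of the 8, that of Cd3d, at 73 and 54 bases, and in 13.8% of all windows. A match describes letters, not a bound site, and the windows hold no enhancers.

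Libraries held 5541486 to 7729988 counts without Dox and 6498193 to 8725767 with Dox. Replicates with Dox differed more from each other, with a biological coefficient of variation of 0.515 against 0.190 among those without, so low counts with Dox are less precise. Y-linked genes had 545 to 801 counts without Dox and 0 in every library with Dox, and Xist had 193 to 324 counts without Dox and 3347 to 5669 with Dox. The difference in Dox and the difference in these sex-linked genes cannot be told apart in any value below. Haemoglobin genes took 8.61% to 9.04% of counts without Dox and 14.1% to 15.9% with Dox, so the libraries of both groups held RNA of the red cell lineage as well.

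All 8 genes fell with Dox. Dntt fell furthest and Cd247 least, at log2 fold changes of -8.89 and -2.80, and the median of the 8 was -4.38, beside 0.07 over all 14110 tested genes. Each was past an adjusted p of 0.05 in edgeR's quasi-likelihood test over all tested genes, where 45.6% of genes were called in either direction, 22.1% lower and 23.6% higher with Dox. The libraries of the 2 groups did not overlap in any of the 8, against 29.6% of tested genes that were lower without overlap. Only 4 of the 8, the CD3 and zeta chains, had at least 10 counts in every library; Ptcra, Rag1, Rag2 and Dntt were below 10 in at least 1 library with Dox and passed the filter on low counts through the libraries without Dox. In bulk RNA of this kind, fewer cells of a type and less RNA per cell cannot be told apart.

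**Figure D1:**
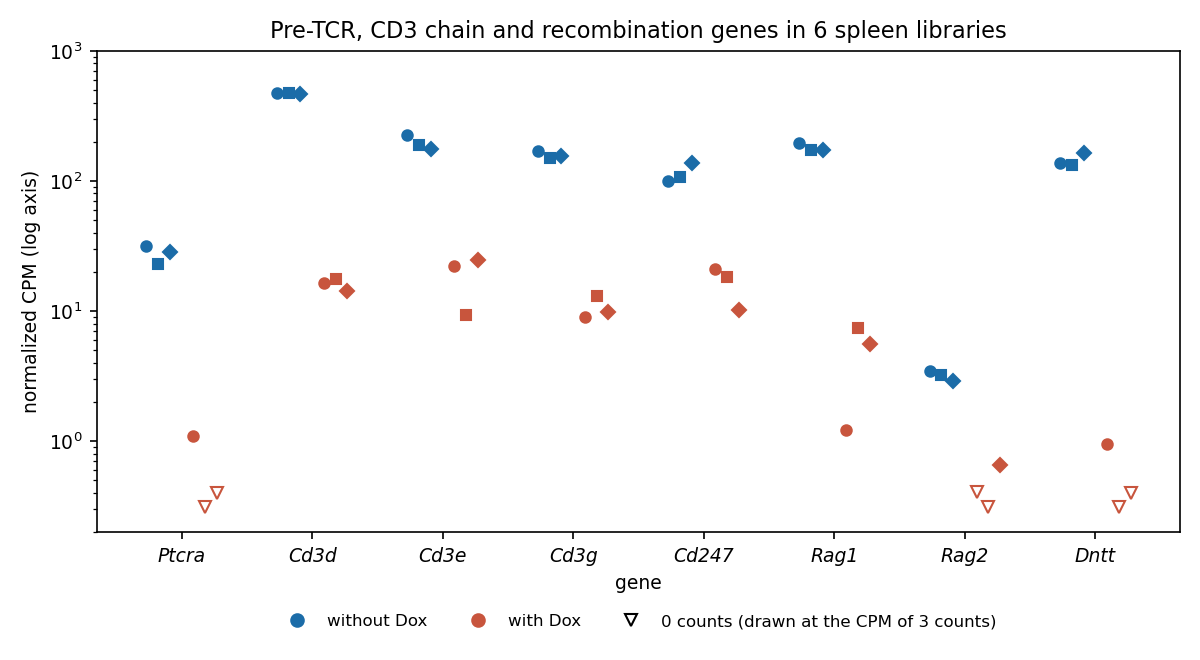
Normalized CPM (counts-per-million after TMM scaling, which adjusts for library composition; log axis) of the 8 genes, 1 point per library, with replicates 4, 5 and 6 (blue) and 10, 11 and 12 (red) drawn as circle, square and diamond in that order. Each gene's blue points lie above its red points, and open triangles stand for 0 counts, drawn at the CPM that 3 counts would give; Ptcra, Rag2 and Dntt each have 2 of them with Dox.

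Ptcra encodes pre-T alpha, the stand-in for the alpha chain that marks a cell before alpha rearrangement. Without Dox it was counted 210, 114 and 166 times, and with Dox 8, 0 and 0 times in replicates 10, 11 and 12. As normalized CPM (counts-per-million after TMM scaling) this was 27.5 ± 4.2 without Dox against 0.36 ± 0.63 with Dox (SD, n = 3 each). Every count with Dox came from replicate 10. A count of 0 allows up to 3 counts, or 0.31 to 0.41 CPM across the libraries with Dox, by counting error only. The log2 fold change was -6.29 ± 0.86 (SE; edgeR adjusted p = 0.000272). By group means over all libraries Ptcra was 75.9-fold lower with Dox. Without replicate 10 both remaining libraries with Dox were at 0, and Ptcra was at least 78.2-fold lower against 3 counts per library. That bound leaves out the only library with Dox that held Ptcra counts, so it is no bound for all libraries.

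Dntt, whose enzyme adds bases at receptor gene joints without a template, had 911, 658 and 969 counts without Dox and 7, 0 and 0 with Dox. The normalized CPM was 145 ± 17 without Dox against 0.32 ± 0.55 with Dox (SD, n = 3 each), so the level with Dox was 0.22% of that without. As for Ptcra, replicate 10 held all the counts with Dox. The log2 fold change of Dntt was -8.89 ± 0.62 (SE; edgeR adjusted p = 4.86e-06), and 0.206% of tested genes had a lower one. Without replicate 10 Dntt was at 0 with Dox, at least 411-fold lower against the same floor, which may be too low with Dox.

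Rag1, the catalytic subunit of the recombinase, had 1307, 859 and 1023 counts without Dox and 9, 72 and 42 with Dox. This came to 195, 174 and 173 normalized CPM without Dox, against 1.22, 7.41 and 5.53 with it. Rag1 was thus lowest in replicate 10, the library with Dox that alone held Ptcra and Dntt counts. It remained detectable in the other libraries with Dox, where Ptcra and Dntt had 0 counts. The contrast rests on replicate 10 alone, with 9 counts of Rag1, 8 of Ptcra and 7 of Dntt. The log2 fold change was -5.23 ± 0.46 (SE; edgeR adjusted p = 1.85e-05).

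Rag2, the partner subunit that binds modified histones, was low throughout, with 23, 16 and 17 counts without Dox and 0, 0 and 5 with Dox. The groups did not overlap, at 2.88 to 3.43 CPM against 0 to 0.66 CPM. Its log2 fold change was -3.80 ± 1.36 (SE; edgeR adjusted p = 0.0432), the least certain of the 8, and the call was lost when any library other than Dox replicate 12 was left out (adjusted p from 0.0727 to 0.179). Without Dox replicate 12, which holds the 5 counts, Rag2 was at 0 with Dox. It was then at least 8.89-fold lower against 3 counts per library, a floor that may be too low with Dox. Iftap, a gene on the opposite strand that overlaps Rag2 in RefSeq, had 86 to 125 counts without Dox and 12 to 47 with Dox, and whether the counting used strand is not given in the sources used here, so reads of these genes may not be fully separated.

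Cd3d, the delta chain, had 473, 476 and 469 normalized CPM without Dox, and it had 16.5, 17.6 and 14.2 CPM with Dox. The spread within each group was small, and the log2 fold change was -4.87 ± 0.18 (SE; edgeR adjusted p = 5.37e-07). Cd3g, the gamma chain next to it, had 170, 149 and 155 CPM without Dox and 8.98, 13.0 and 9.88 with Dox, a log2 fold change of -3.89 ± 0.21 (SE; adjusted p = 1.87e-06). The pair therefore fell together, and their 95% intervals of the log2 fold change, -5.27 to -4.48 for Cd3d and -4.37 to -3.41 for Cd3g, did not meet.

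Cd3e, the epsilon chain that pairs with both delta and gamma, had 224, 187 and 175 CPM without Dox and 22.2, 9.37 and 24.8 with Dox. Replicate 11 was the low library with Dox, and the log2 fold change was -3.39 ± 0.33 (SE; edgeR adjusted p = 3.53e-05). Cd247, the zeta chain, which NK cells also use behind some Fc and activating receptors, had 99.7, 108 and 136 CPM without Dox and 20.8, 18.3 and 10.1 with Dox. It retained the largest share of its level, 14.3%, and its log2 fold change was -2.80 ± 0.28 (SE; adjusted p = 4.21e-05). Pou2f1, which overlaps Cd247 on the opposite strand, went the other way, from 231 to 313 counts without Dox to 537 to 692 with Dox. Gm32999, also on the opposite strand, had 113 to 187 counts without Dox and 72 to 190 with Dox, and how far reads of these genes entered the Cd247 counts was not tested.

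**Figure D2:**
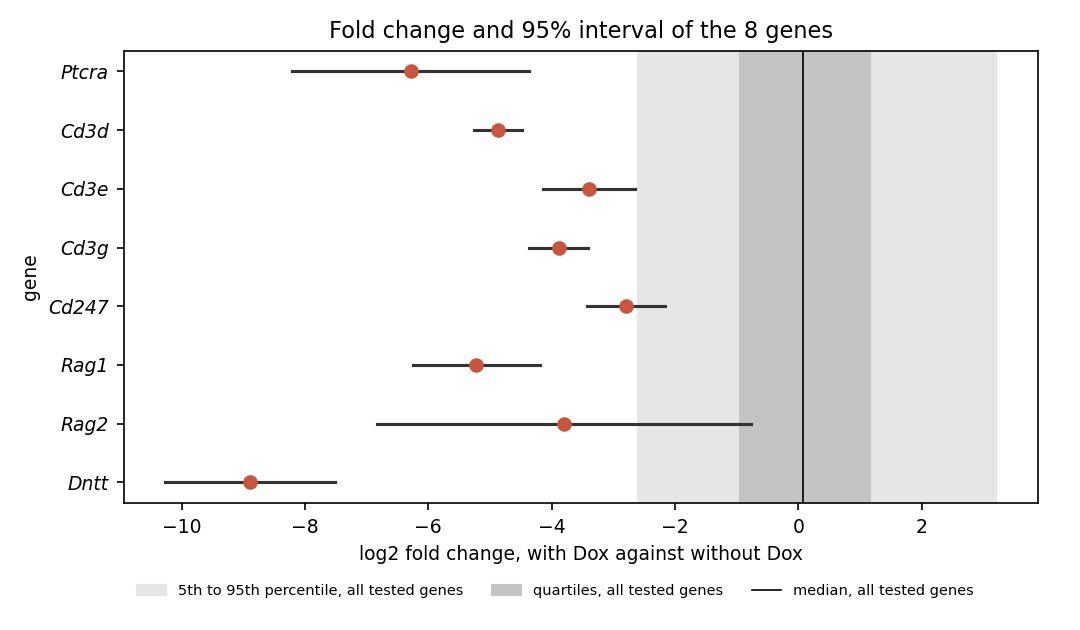
Log2 fold change, with Dox against without Dox, of the 8 genes (points) with 95% confidence intervals (bars), over the quartiles and the 5th to 95th percentile of all 14110 tested genes (grey bands). The 8 points lie to the left of the grey bands, from -8.89 for Dntt to -2.80 for Cd247, and the bar of Rag2 is the widest.

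Cd3d made up less, and Cd247 more, of the CD3 and zeta chain counts in every library with Dox than in any without, though 3 libraries against 3 cannot reach the threshold. Counts of each chain were divided by the summed counts of the 4 chains in the same library, which needs no scaling between libraries. Cd3d took 48.9%, 51.8% and 50.1% of them without Dox and 24.1%, 30.2% and 24.1% with Dox. Cd247 took 12.2% ± 2.2 without Dox against 26.4% ± 8.0 with Dox (SD, n = 3 each). The Cd247 share was lowest with Dox in replicate 12, at 17.2%, above the highest without Dox, 14.6%. Cd3e took 20.8% ± 2.2 without Dox and 30.1% ± 13.1 with Dox, and Cd3g 16.8% ± 0.7 and 17.4% ± 4.6 (SD, n = 3 each), and for these the groups overlapped. The exact two-sided permutation test gave p = 0.1 for Cd3d and Cd247, the smallest p that 3 against 3 libraries allow, p = 0.4 for Cd3e and p = 0.8 for Cd3g. None passed the threshold after Benjamini-Hochberg adjustment over the 7 ratios and shares tested (0.14 at the lowest, permutation test). The 4 shares sum to 100%, so a lower share of Cd3d entails a higher share of other chains.

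**Figure D3:**
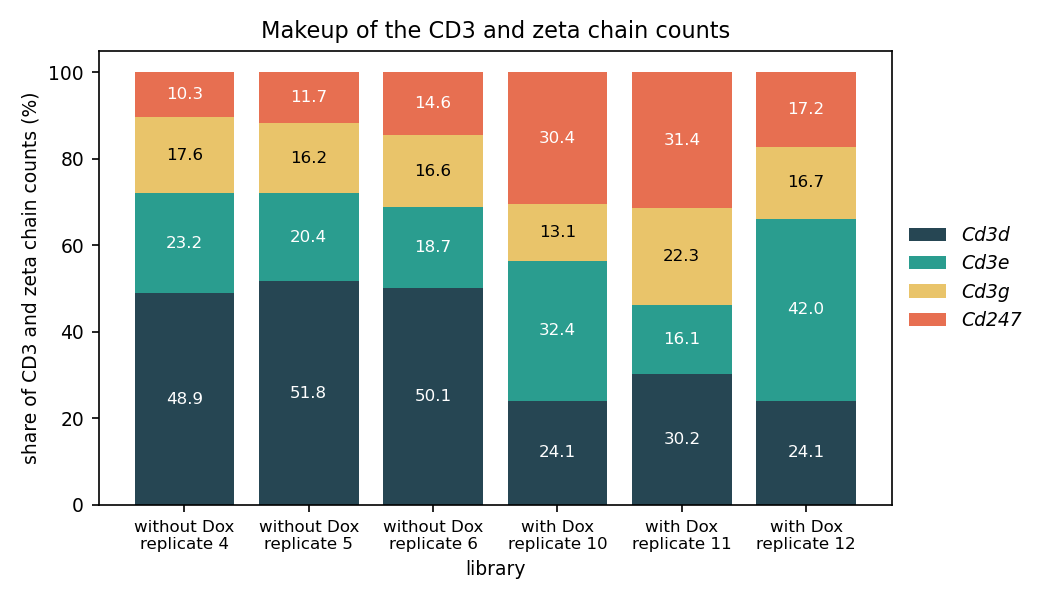
Share of Cd3d, Cd3e, Cd3g and Cd247 in their summed counts, in percent, 1 bar per library. The Cd3d segment lies between 48.9% and 51.8% in the 3 libraries without Dox and between 24.1% and 30.2% in the 3 with Dox, while the Cd3e segment varies from 16.1% to 42.0% among the libraries with Dox.

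Ptcra, Rag1 and Dntt had fewer counts per CD3 count in every library with Dox than in any without, whereas Rag2 did not. Per 100 counts of the 4 CD3 and zeta chains, Ptcra had 3.24, 2.51 and 3.01 counts without Dox and 1.59, 0 and 0 with Dox. Those CD3 and zeta counts were 4539 to 6478 per library without Dox and 448 to 566 with Dox. By counting error only, 0 counts of Ptcra allow up to 0.53 and 0.67 per 100 in replicates 11 and 12. Rag1 had 20.2, 18.9 and 18.5 per 100 without Dox and 1.79, 12.7 and 9.38 with Dox. Dntt had 14.1, 14.5 and 17.6 per 100 without Dox and 1.39, 0 and 0 with Dox. In each of these 3 genes the groups did not overlap. Rag2, on at most 5 counts with Dox, had 0.355, 0.353 and 0.308 per 100 without Dox and 0, 0 and 1.12 with Dox, so replicate 12 lay above all libraries without Dox.

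On the log2 scale, with 0.5 counts added to each sum, the ratio of Ptcra to the CD3 and zeta chains was lower with Dox, by a difference of -3.51 (p = 0.1 in the exact two-sided permutation test, the least that 3 libraries against 3 allow). Its size rests on the 0 counts: it was -1.70 with 3 counts added, -4.88 without Dox replicate 10 and -2.75 without Dox replicate 11. The ratio of summed Rag1, Rag2 and Dntt counts to the CD3 and zeta chains differed by -2.19 (exact two-sided permutation p = 0.1), with -2.57 to -1.58 over the fits that each left out a library. Both ratios had an adjusted p of 0.14 over the 7 permutation tests.

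**Figure D4:**
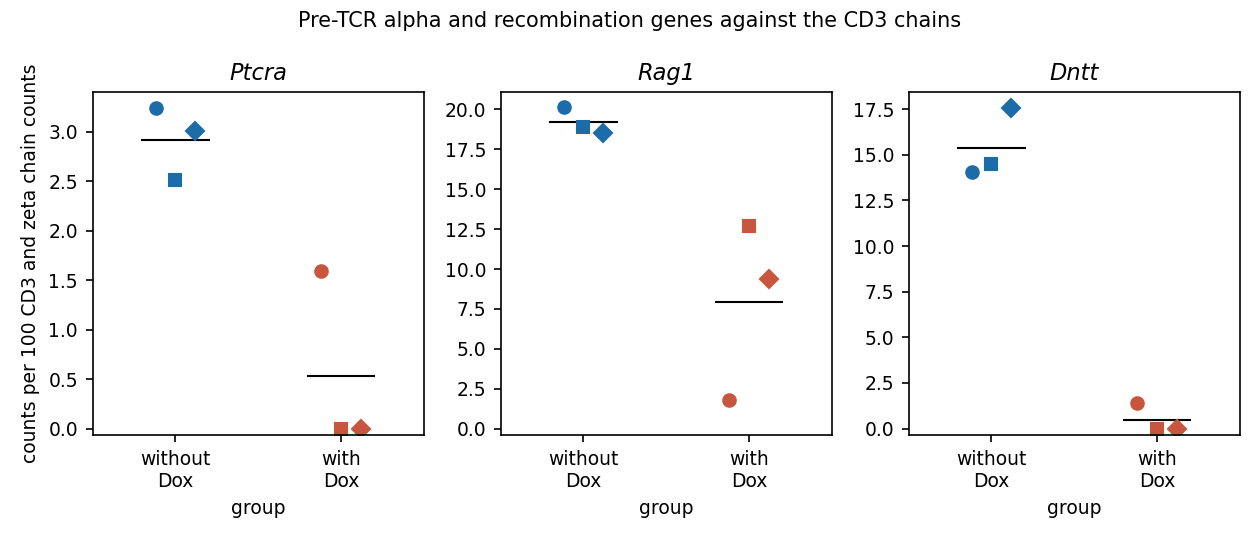
Counts of Ptcra, Rag1 and Dntt per 100 counts of Cd3d, Cd3e, Cd3g and Cd247 in the same library, without Dox (blue) and with Dox (red); horizontal lines are group means, and replicates are circle, square and diamond in the order of their numbers. For Ptcra and Dntt only replicate 10 with Dox lies above 0, whereas for Rag1 it is the lowest of the 3 libraries with Dox. The points of replicate 10 rest on 8 counts of Ptcra, 9 of Rag1 and 7 of Dntt.

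Whether the CD3 chains fell by another amount than other T lineage genes depended on the reference. Against the summed counts of Cd2, Cd5, Cd6, Cd28, Thy1, Lat and Lck, surface and signalling genes of T cells, the CD3 and zeta chains had 76.4 to 78.3 counts per 100 without Dox and 24.4 to 37.1 with Dox, a log2 difference of -1.37 (exact two-sided permutation p = 0.1, adjusted p = 0.14). Cd2, which mouse B cells also express, took 10.2% to 10.7% of the reference counts without Dox and 48.6% to 59.5% with Dox. Without Cd2 and Cd5, a choice made after these values were seen, the CD3 and zeta chains had 88.5 to 90.7 counts per 100 without Dox and 80.0 to 111 with Dox, and the log2 difference was 0.0049 (permutation p = 1). Cd2 itself had 128 ± 7 CPM without Dox against 117 ± 34 with Dox (SD, n = 3 each; log2 fold change -0.13, edgeR adjusted p = 0.67).

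Of the 7 constant region genes of the receptor chains that CD3 carries, 5 were lower, beside 22.1% of all tested genes, and 2 were not called, and the median log2 fold change was -3.05, the same with Trgc1 set at its bound. Trgc1 had 36 to 63 counts without Dox and 0 in every library with Dox, at least 23.7-fold lower by group means against 3 counts per library. Trbc1 fell from 729 ± 30 to 15.3 ± 6.4 CPM (SD, n = 3 each). Its log2 fold change was -5.57 ± 0.29 (SE; edgeR adjusted p = 1.56e-06). The beta and gamma constant regions have near-identical copies, so the split of reads among them is uncertain. Beside the CD3 chains, the adaptors Fcer1g, Tyrobp and Hcst, which serve Fc and NK receptors, were not called, with log2 fold changes of -0.55, -0.25 and 0.24; their median of -0.25 turned to 0.056 with scaling by library size only.

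The partners that repair the breaks made by Rag1 and Rag2 were called in both directions. Of 15 genes in the list, 13 were tested, 5 were lower, 1 was higher and 7 were not called, while 22.1% of all tested genes were lower and 23.6% higher, so that the share called in either direction, 6 of 13, was near the 45.6% of all tested genes; the median log2 fold change was -0.29, and it turned to 0.016 with scaling by library size only, which raised the median of all tested genes from 0.07 to 0.38. Lig4, the ligase that seals the joints, fell from 113 ± 7 to 6.86 ± 2.71 CPM (SD, n = 3 each; log2 fold change -4.05, edgeR adjusted p = 5.38e-06). Xrcc6, the Ku70 subunit that holds broken ends, fell from 246 ± 18 to 17.0 ± 3.0 CPM (log2 fold change -3.86, adjusted p = 1.56e-06). Hmgb2, a DNA-bending cofactor of the recombinase, fell to a log2 fold change of -1.83 (edgeR adjusted p = 0.000145). Dclre1c, the Artemis nuclease that opens hairpin ends, rose from 13.0 ± 2.4 to 36.3 ± 5.2 CPM (SD, n = 3 each; log2 fold change 1.47, adjusted p = 0.00148).

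A list held 20 transcription factors and E protein inhibitors linked to regulatory DNA of Rag, Ptcra or Cd3 genes. Beside 22.1% lower and 23.6% higher of all tested genes, 14 of the 20 were lower, 3 were higher and 3 were not called. Their median log2 fold change was -0.98. With scaling by library size only, 10 were lower and 4 higher, with a median of -0.68. Tcf7 and Gata3, which set the T lineage programme, fell by 5.67 (SE 0.45) and 5.59 (SE 0.23) on the log2 scale. Id3, an inhibitor of E proteins that pre-T cell receptor signals induce, fell by 4.14 (SE 0.43), and Lef1, a partner of beta-catenin, fell by 3.88 (SE 0.22). Their edgeR adjusted p-values ran from 5.37e-07 for Gata3 to 4.70e-05 for Id3. Of the factors whose motifs are marked or counted in the sequences shown above, named after their values were seen, Tcf12 had a log2 fold change of -1.75 (edgeR adjusted p = 3.48e-05), whereas Tcf3, at a log2 fold change of 0.07, and Rbpj, at 0.30, were not called (adjusted p = 0.822 and 0.171). Of the RUNX factors in the list, Runx3 rose (log2 fold change 1.47, edgeR adjusted p = 9.92e-05), while Runx1 and the shared partner Cbfb fell, with log2 fold changes of -0.70 and -2.51 (adjusted p = 0.0113 and 1.85e-05).

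Around the CD3 chains, 9 of 16 kinases and adaptors were lower, 2 were higher and 5 were not called, with a median log2 fold change of -0.79, beside 45.6% of all tested genes called and 22.1% lower. With scaling by library size only, 6 were lower and 2 higher, with a median of -0.48, while 6616 of 14110 genes were called, so the share called in this list was then near that of all genes. Lat, the adaptor that the CD3-bound kinase phosphorylates, fell from 213 ± 18 to 11.8 ± 3.9 CPM (SD, n = 3 each; log2 fold change -4.17, edgeR adjusted p = 2.83e-06). Syk, the kinase that serves the B cell receptor as Zap70 serves CD3, rose from 11.3 ± 0.9 to 160 ± 32 CPM (log2 fold change 3.82, adjusted p = 2.58e-06). In a list of genes of double-positive thymocytes, the stage at which Rag genes act on the alpha chain, 14 of 15 were lower, beside 22.1% of all tested genes, and 1 was higher; the median was -3.28, the same with genes at 0 set at their bound. That list holds Ptcra, Rag1, Rag2 and Dntt themselves.

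**Figure D5:**
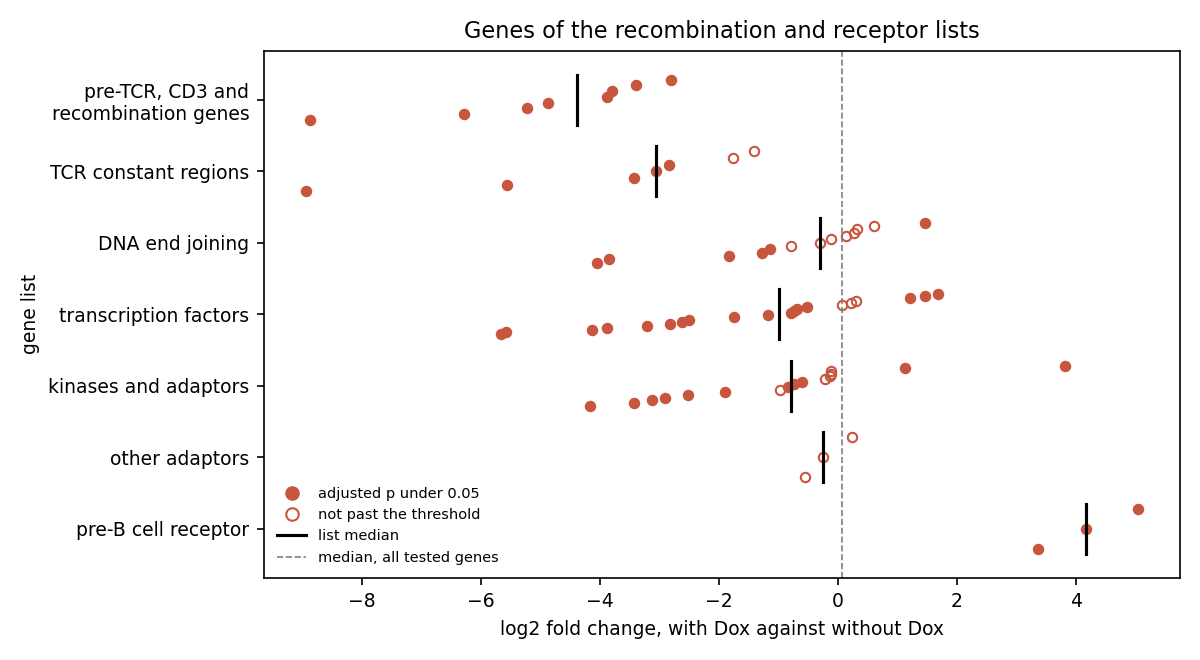
Log2 fold change, with Dox against without Dox, of each tested gene in 7 lists (1 row per list, points spread vertically for legibility only), with filled points at an adjusted p under 0.05 and black lines at list medians. The 8 genes described here lie to the left of 0, as do the tested T cell receptor constant regions, while DNA end joining genes lie on both sides and the 3 tested pre-B cell receptor genes lie to the right.

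Rag1, Rag2 and Dntt also act in B cell precursors, where the pre-B cell receptor holds the place of the pre-T cell receptor. Its surrogate light chain genes were at or near 0: Vpreb1 had 1, 4 and 9 counts without Dox and 0, 8 and 0 with Dox, and Vpreb2 and Igll1 had 0 counts in all 6 libraries. The signalling chains Cd79a and Cd79b, which mature B cells keep, rose by 4.18 (SE 0.30) and 5.05 (SE 0.33) on the log2 scale, and Vpreb3 rose by 3.37 (SE 0.48; edgeR adjusted p of the 3 from 3.64e-06 to 0.000345). All 12 of 12 B cell markers were higher with Dox, beside 23.6% of all tested genes, and their summed level was 40.4 to 47.8 CPM without Dox and 2404 to 2560 CPM with Dox.

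Marker genes of several cell types also differed between the groups, in either direction. Beside the counts that follow, 45.6% of all tested genes were called, 22.1% lower and 23.6% higher. T cell markers other than CD3 were lower in 12 of 16, higher in 1 and not called in 3, and their summed level was 2016 to 2152 CPM without Dox and 277 to 386 CPM with Dox. The higher gene was Cd7, with 0, 1 and 1 counts without Dox and 82, 42 and 93 with Dox, while Thy1 fell by 5.72 on the log2 scale (SE 0.37). Neutrophil markers were higher in 10 of 10 and rose in sum from 53.9 to 66.9 CPM to 2249 to 2402 CPM. Progenitor markers were higher in 7 of 7 tested, at 30.2 to 34.4 and 201 to 230 CPM. Dendritic cell markers were higher in 7 and lower in 1 of 9 tested, and megakaryocyte markers higher in 5 of 5. Macrophage and monocyte markers (4 higher and 3 lower of 12) and erythroid markers (5 and 2 of 10) also had calls both ways. So had plasma cell markers (3 and 2 of 6) and stromal and endothelial markers (3 and 2 of 9). The shares of the macrophage and stromal lists lay near those of all tested genes. With scaling by library size only, 7 macrophage markers were higher and 2 lower, and 4 stromal markers were higher and 0 lower. Of the NK cell markers, 3 of 5 tested were higher and Gzma, a granule protease that T cells also make, was lower; the 8 NK genes without Gzma summed to 3.39 to 7.90 CPM without Dox and 23.8 to 37.0 CPM with Dox, beside 10.1 to 20.8 CPM of Cd247 with Dox. The part that cell makeup has in the values of the 8 genes was not tested.

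Within the 6 libraries, the closest profiles among the 8 were those of Cd3d and Cd3g, at a root mean square distance of 0.51 on the log2 scale after each gene was centred, and the most distant were Rag2 and Dntt, at 2.86. Among 7049 other genes with at least median expression, those nearest to the mean profile of the CD3 and zeta chains were Gm15421 (0.083), Camk4 (0.085) and Xrcc6 (0.094). Those nearest to Ptcra were Sod1 (0.42), Bambi-ps1 (0.44) and Timm8b (0.50), and those nearest to Rag1 were Mgst3 (0.38), Ighg1 (0.63) and Gpr25 (0.63). The median distance of the 7049 genes was 1.82 from the CD3 mean profile, 2.95 from Ptcra and 2.76 from Rag1. With 6 libraries in 2 groups, these distances mostly describe the difference between the groups.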

How the data were processed

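The authors deposited raw counts per Entrez gene ID, 1 column per library. Libraries were made with a QuantSeq 3′ kit (forward), per the labels' protocols. A transcript gives about 1 fragment whatever its length, so no length scaling was applied. STAR, featureCounts and GRCm38 are named in the submitters' processing notes, without versions. The annotation, the strand setting and whether molecular identifiers were counted are not given in the sources used here. Floors of 3 counts therefore cover counting error only and may be too low in the libraries with Dox. Intervals of fold changes include the spread between libraries.

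Groups came from the titles. All 6 columns matched a sample, and 0 were left over. Symbols came from RefSeq (GRCm38.p6; 96.5% of IDs matched). A low-count filter (filterByExpr, with a minimum count of 10 and a minimum total of 15) was applied, and genes were scaled with TMM and tested with edgeR 4.0.16 (R 4.3.3; quasi-likelihood F-test, no covariate, Benjamini-Hochberg over 14110 genes, threshold 0.05). Standard errors came from the fold change and F statistic. Ratios within a library were compared by exact two-sided permutation tests. The script was tested on simulated data. The chi-square per degree of freedom between replicates was 6.85 to 16.7 without Dox and 17.4 to 37.1 with Dox, so no pair was within counting noise.

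The genes and lists were chosen with earlier results of these data known. Genes outside the 8 were named by a rule: those past the threshold with the largest absolute fold change, up to 4 in the end joining, transcription factor and pre-B cell receptor lists and up to 2 in others; any other gene was chosen after its values were seen, and a gene the rule names is not reported here. Alternatives were other scalings and filters, DESeq2 1.42.0, limma-voom (limma 3.58.1), a stricter threshold, other pseudocounts and references, and leaving out each library.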

Additional observations from a re-analysis of the deposited data

How the results depend on the processing

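No paired analysis was possible because replicates 4 to 6 and 10 to 12 have no number in common. The genes other than Rag2 kept their direction and their call in every alternative that tested them; Rag2 kept its direction, with adjusted p-values of 0.0556 with library size only, 0.0617 without a low-count filter, 0.0567 by limma-voom with a variance per group (chosen after seeing the data) and 0.0727 to 0.179 in 5 of the 6 fits that left out a library. With at least 10 counts in every library only 4 of the 8 genes were tested and 4 were lower. Leaving out each library gave 7 to 8 of the 8 genes lower, 0 higher, and 4794 to 7025 genes called in place of 6438. The CD3 to T lineage ratio turned from -1.37 to 0.0049 without Cd2 and Cd5 in the reference (chosen after seeing the data), and was -1.52 to -1.22 over the fits that left out a library. Over those fits the difference in share was -26.2 to -23.1 percentage points for Cd3d, 3.48 to 16.4 for Cd3e, -1.85 to 2.72 for Cd3g (main value 0.59) and 11.6 to 18.7 for Cd247. With library size only, the median log2 fold change turned to 0.016 in the end joining list and 0.056 in the list of other adaptors. Counts under 10 with Dox limit the size of the changes of Ptcra, Rag2 and Dntt.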
